A study of Mus musculus with 12 samples.

Results

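The genes described are 9 members of the AP-1 family of 21851 protein-coding genes: Fos, Fosb, Fosl1 and Fosl2 (Fos proteins), Jun, Junb and Jund (Jun proteins), Atf3 and Maff. They were listed by name with results of these data in view: Fosl1 and Fosl2 were chosen by the H3K27ac intervals nearest to them that were called at 1 oxygen level and not at the other. Each gene was read over its body and 50000 bp on each side (its window) in 4 peak lists, which held 63 intervals in the 9 windows, of 22555 intervals in all. No interval lay in more than 1 of the windows. An interval is called shared when both lists of a mark hold it, and hypoxia-only or normoxia-only (condition-specific) when only the list of that oxygen level does.

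The lists come from chromatin immunoprecipitation followed by sequencing (ChIP-seq) of mouse mesenchymal stem cells (MSCs) from wild-type male C57BL/6N mice aged 3 to 5 months, sorted as CD45-/TER-119-/CD140a+/Sca-1+ cells on day 12 by the sample labels. Sorted cells were kept at 2% oxygen (hypoxia) or 21% oxygen (normoxia) and profiled for H3K27ac, H3K4me3 or input (chromatin sequenced without an antibody step). These made 6 groups of 2 libraries, 12 in all. Each mark and oxygen level has 1 peak list made from both of its libraries, so no value below has a replicate check and the sequencing depth is unknown. The labels call the cells bone-marrow MSCs, while the study's methods take them from bone chips grown at 2% oxygen before the sort, so the normoxia cells had also been in hypoxia first. By the paper, culture at each oxygen level after the sort lasted days, with a focus on long-term effects. How many animals stand behind a library is not given in the sources used here.

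AP-1 is a transcription factor made of paired proteins that hold each other through a leucine zipper and grip DNA with an adjoining basic region (bZIP proteins). Jun proteins pair with themselves or with Fos proteins, while Fos proteins need a Jun partner, and Atf3 and the small Maf protein Maff belong to the wider bZIP class. Fos, Fosb, Jun, Junb and Atf3 are immediate early genes, which are switched on within minutes by growth factors or stress, and AP-1 has known roles in the growth of bone-forming cells. H3K27ac marks active promoters and enhancers, and H3K4me3 marks promoters.

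The best known DNA site of AP-1 is the TRE, with the letters TGAGTCA. A related site, the CRE with the letters TGACGTCA, is bound by ATF and CREB proteins and by some Jun pairs. To show what the starts of these genes carry, the 250 bases before each RefSeq transcription start were searched on both strands in the RefSeq promoter table of GRCm38.p6. Of the 9 genes, 8 had an entry, with 10 entries in all, and Fosl1 had none. RefSeq starts can differ from the GENCODE starts used for the peaks. All 250 bases of the Fosl2 entry lay in a GENCODE exon, as its RefSeq start, 32136472, is downstream of the GENCODE start, 32135801. The RefSeq start of Jund, 70697739, is upstream of its GENCODE start, 70698949, so the bases just before the latter were not searched. TGAGTCA was found in 0 of the 10 entries and in 4.46% of the 32851 promoters of the table. The core TGACG, which a full CRE holds on each strand, was found in 6 of the 10 entries, from 5 genes, and in 17.8% of all promoters. TGACATCA, a variant of the TRE known from the Jun promoter, was found in 2 of the 10 entries and in 2.93% of all promoters. Neither the TRE nor the TGACG core is contained in it, on either strand, although it begins with the same TGAC as the core. The full CRE was found in 1 entry, the second start of Maff, against 1.55% of all promoters. The serum response element, by name, was found in 0 of the 10 entries and in 1.47% of all promoters. Only 250 bases were searched, so a site farther upstream would be missed, and a count of 0 does not show that a gene lacks it.

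The promoters printed here are those of the prototype Fos and Jun genes, of Junb and Atf3, and of the Maff start with the full CRE. Capitals mark TGACG or its reverse complement in Fos, Junb and Atf3, TGACATCA in Jun and TGACGTCA in Maff. They lie at chr12:85473640-85473889 (+), chr4:95052223-95052472 (-), chr8:84978749-84978998 (-), chr1:191183334-191183583 (-) and chr15:79347270-79347519 (+) of GRCm38.p6, and each is written 5′ to 3′ in the direction of its gene.
Fos: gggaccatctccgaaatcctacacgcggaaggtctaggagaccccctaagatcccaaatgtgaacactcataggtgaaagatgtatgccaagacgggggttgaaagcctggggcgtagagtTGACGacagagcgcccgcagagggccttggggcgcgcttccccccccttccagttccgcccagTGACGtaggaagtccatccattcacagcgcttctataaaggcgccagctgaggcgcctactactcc
Jun: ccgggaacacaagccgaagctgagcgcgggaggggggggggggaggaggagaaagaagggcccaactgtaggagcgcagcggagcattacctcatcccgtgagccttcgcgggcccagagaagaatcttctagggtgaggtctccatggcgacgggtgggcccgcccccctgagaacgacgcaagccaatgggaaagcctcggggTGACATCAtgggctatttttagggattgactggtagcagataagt
Junb: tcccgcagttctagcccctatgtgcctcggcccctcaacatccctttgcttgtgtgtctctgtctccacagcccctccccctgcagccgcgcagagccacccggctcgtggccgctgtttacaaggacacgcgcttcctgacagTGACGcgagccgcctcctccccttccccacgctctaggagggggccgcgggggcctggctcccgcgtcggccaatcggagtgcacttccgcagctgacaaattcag
Atf3: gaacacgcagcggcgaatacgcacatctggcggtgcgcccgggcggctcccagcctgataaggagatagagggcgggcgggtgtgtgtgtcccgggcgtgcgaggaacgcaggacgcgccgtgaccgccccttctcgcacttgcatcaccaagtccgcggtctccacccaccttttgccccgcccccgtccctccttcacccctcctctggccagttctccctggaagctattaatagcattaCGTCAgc
Maff: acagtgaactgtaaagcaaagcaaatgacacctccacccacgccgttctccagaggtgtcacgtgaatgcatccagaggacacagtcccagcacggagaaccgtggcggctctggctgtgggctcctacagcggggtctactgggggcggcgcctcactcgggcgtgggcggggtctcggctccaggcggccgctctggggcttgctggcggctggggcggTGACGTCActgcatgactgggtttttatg
The first base of the core lay 129 and 66 bases before the RefSeq start in Fos, 106 bases before it in Junb and 7 bases before it in Atf3. The last 7 bases of the Atf3 entry lay in a GENCODE exon, so by that annotation its match is not before the start. TGACATCA began 45 bases before the start of Jun, and the full CRE began 29 bases before the second start of Maff. A match is a run of letters and was not shown to be bound in these cells.

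All 9 genes had an H3K4me3 peak within 1000 bp of a transcription start at both oxygen levels, a state found in 58.9% of coding genes. An H3K27ac peak at the start was called for 8 of the 9 genes at each oxygen level, against 37.6% of coding genes in hypoxia and 37.0% in normoxia. The exception was Atf3, a stress-induced bZIP protein that can act as a repressor. Of the coding genes with H3K4me3 at a start in hypoxia, 38.2% likewise lacked H3K27ac at every start.

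**Figure D1:**
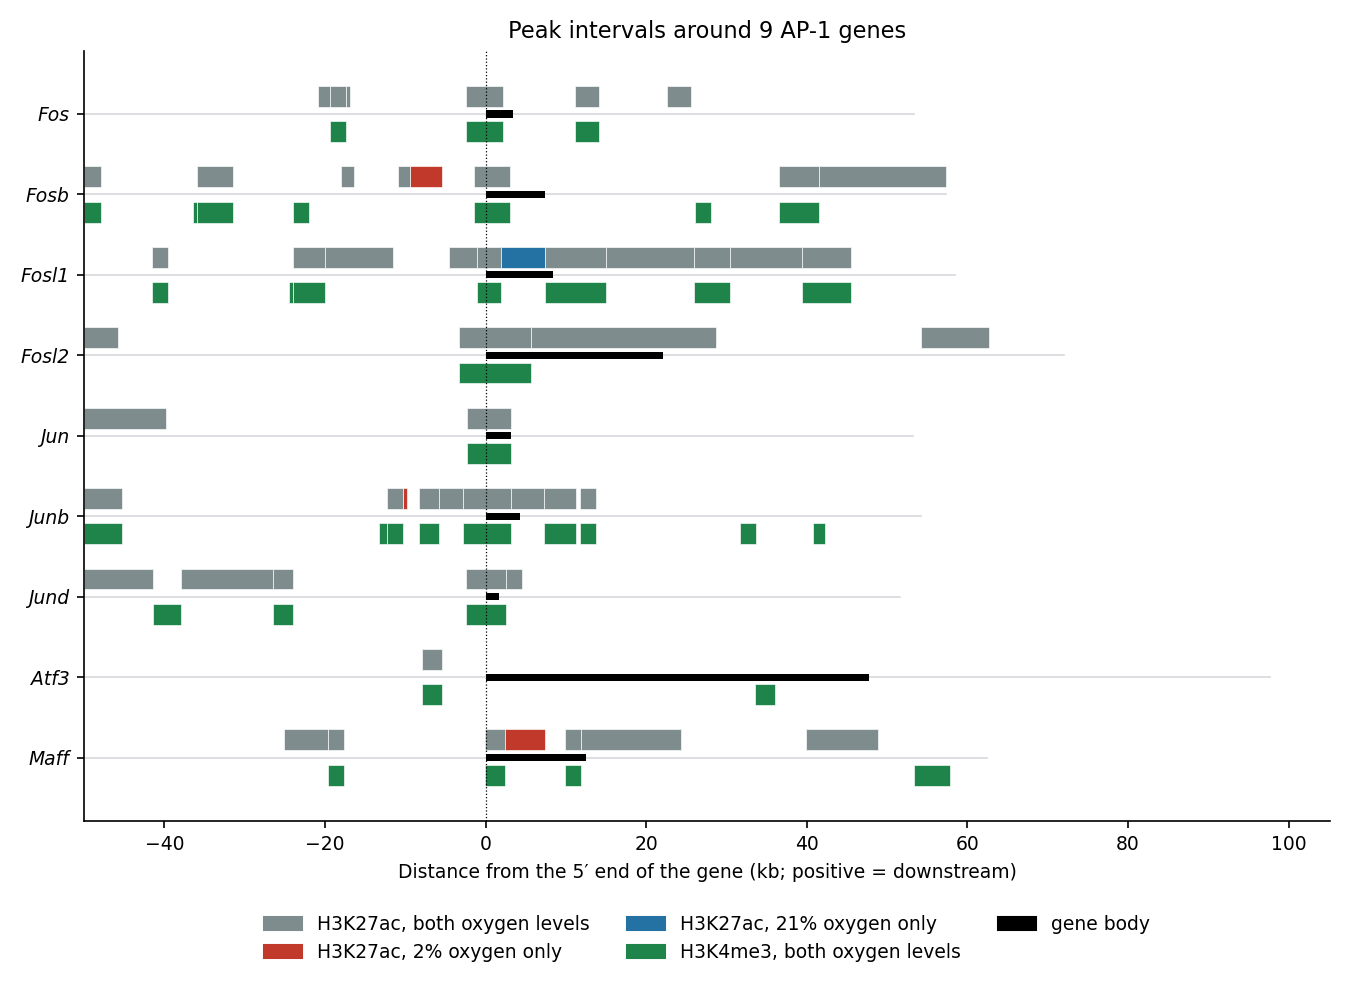
Peak intervals by distance from the 5′ end of each gene in kb, drawn in the direction of transcription, with grey lines for the windows (intervals are cut at both edges of the window). Upper blocks are H3K27ac, coloured by the lists that hold them, lower blocks are H3K4me3 and black bars are gene bodies. H3K27ac covers the start of 8 genes and leaves Atf3 bare, with 3 red blocks at Fosb, Junb and Maff and 1 blue block inside Fosl1.

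The extent of H3K27ac was then compared per length of window, since windows follow gene length. H3K27ac covered 54.4% of the Fosl1 window in hypoxia, 36.6% of that of Fosl2, 36.2% of that of Fosb, 34.2% of that of Maff, 29.1% of that of Jund and 27.6% of that of Junb. Jun followed with 15.2%, Fos with 14.0% and Atf3 with 1.69%, and the median coding gene had 2.88%. Only Atf3 of the 9 lay below that median. The windows also hold other genes: 11 other coding genes overlapped that of Fosl1, 9 that of Junb, 7 that of Fosb, 5 that of Jund, 2 that of Maff and 1 that of Atf3. None overlapped those of Fos, Fosl2 and Jun, although the H3K27ac interval at the edge of the Fosl2 window, chr5:32084001-32090000, reached past the window into the end of Babam2.

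In kb, the median H3K27ac length in a member's window was 29.6 at each oxygen level, against 4 for all coding genes and 11.5 for coding genes with H3K27ac at the start. The length was the same in both lists for Fos (14.5 kb), Fosl2 (44.7 kb), Jun (15.7 kb), Jund (29.6 kb) and Atf3 (2.5 kb). It was 59 kb in hypoxia and 64.5 kb in normoxia for Fosl1, the member with the longest cover in both lists. It was 38.9 kb and 34.9 kb for Fosb, 28.7 kb and 28.2 kb for Junb, and 38.5 kb and 33.5 kb for Maff. The lists thus differed in length at 4 genes, in opposite directions for Fosl1 and for the other 3, and each difference is the length of a condition-specific interval described below. H3K4me3 length was equal in both lists for all 9 genes, with a median of 11 kb against 5 kb for all coding genes.

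**Figure D2:**
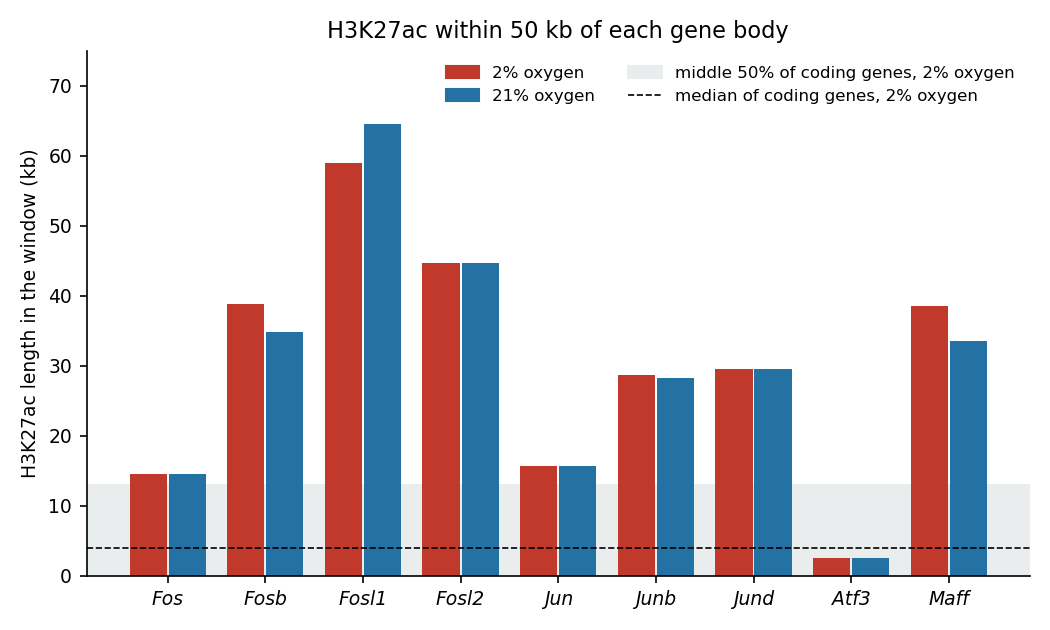
H3K27ac length in kb within each gene body and 50000 bp on each side, at 2% oxygen (red) and 21% oxygen (blue), 1 list each and so without error bars. The dashed line is the median of 21851 coding genes in hypoxia (4 kb) and the grey band their middle 50% (0 to 13 kb). Bars of Fos, Fosl2, Jun, Jund and Atf3 are level between lists, and Atf3 alone lies inside the band.

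Among the Fos proteins, Fos carried H3K27ac at its start from chr12:85471501-85476000, 4.5 kb long, with H3K4me3 over the same interval. All coordinates of peaks are in mm10, the build of the lists. The score of this peak was 1000 in both lists, the ceiling of the scale. Scores ran from 50, the lowest value in each list, to 160, with the rest at 1000, and the share of peaks at 1000 differed strongly between chromosomes. On chromosome 7, which holds Fosb, 41.5% of H3K27ac peaks in hypoxia stood at 1000, on chromosome 4 (Jun) 39.5%, on chromosome 12 (Fos) 11.9% and on chromosome 15 (Maff) 0.00%. Scores of single intervals were therefore set side by side between oxygen levels, with the percentile of the peak among those of its chromosome in the same list. Ranks and shares over whole lists, given further on, cross chromosomes and carry this limit.

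Around Fos, H3K27ac also lay at 16.9 to 20.9 kb upstream in 3 touching intervals and downstream in 2 intervals that began 11.1 and 22.6 kb from the start. All 6 intervals were in both lists, and no coding gene other than Fos overlapped them. The first upstream interval, chr12:85453001-85454500, scored 122 in hypoxia and 1000 in normoxia and moved from the 55.1 to the 94.0 percentile of its chromosome, while its touching neighbour scored 1000 in both.

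Fosb, a Fos protein with a long and a truncated isoform, carried both marks at its start from chr7:19307001-19311500, 4.5 kb long, with an H3K27ac score of 1000 in both lists. A hypoxia-only H3K27ac interval of 4 kb lay upstream at chr7:19315501-19319500, between 5.5 and 9.4 kb from the 5′ end, in intergenic sequence. It scored 51 and touched a shared interval of score 54 in both lists.

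Fosl1 encodes Fra-1, a Fos protein without a transactivation domain of the Fos type that is known for its role in bone matrix formation. Its start interval, chr19:5446501-5449500, was in all 4 lists, with an H3K27ac score of 89 in hypoxia and 109 in normoxia, the 36.8 and the 53.7 percentile of the chromosome. Next to it, chr19:5449501-5455000 was called for H3K27ac in normoxia only. It is 5.5 kb long, begins 1954 bp downstream of the start and covers coding exons and introns of Fosl1 and a UTR of Ccdc85b. Its score of 50 was the lowest in the list, and it carried no H3K4me3. This interval closed a gap between shared intervals on both sides, so the run of touching H3K27ac peaks at the Fosl1 start was 6.5 kb in hypoxia and 50 kb in normoxia. That run ended 45453 bp downstream and crossed Ccdc85b, Fibp, Ctsw, Efemp2, Mus81 and Cfl1.

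Fosl2 encodes Fra-2, a Fos protein known from bone-forming and cartilage cells. It had the longest H3K4me3 interval at a start among the 9 genes, 9 kb, against a median of 2.5 kb over coding genes. H3K27ac ran on from there through the whole gene as chr5:32132501-32141500 and chr5:32141501-32164500, 32 kb in all and equal in both lists, longer than in 97.0% of coding genes with H3K27ac at the start in hypoxia. The start interval scored 125 in both lists and the second interval 121 in hypoxia and 100 in normoxia. No condition-specific interval lay in its window. The one nearest to its start, normoxia-only, lay 132801 bp upstream in Babam2 at chr5:31995501-32003000, 7.5 kb long with a score of 57, and was 7500 bp from the nearest H3K27ac peak of the hypoxia list.

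Among the Jun proteins, Jun had both marks over a 5.5 kb start interval, chr4:95049001-95054500, at a score of 1000 for H3K27ac in both lists. Its second H3K27ac interval, chr4:95092001-95108500, was 16.5 kb long, lay 39.8 to 56.3 kb upstream in intergenic sequence without H3K4me3 and scored 130 in both lists. Jun thus had 2 H3K27ac intervals, both shared.

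Junb, a Jun protein that often opposes Jun in proliferating cells, scored 136 in both lists at its start interval, chr8:84975501-84981500. The run of touching H3K27ac peaks there was 19.5 kb in both lists and longer than in 93.0% of coding genes with H3K27ac at the start in hypoxia. Within this run the 2 intervals on the downstream side, a first over Rnaseh2a and Prdx2 and a second over Prdx2 and the end of the Junb gene body, scored 135 and 128 in hypoxia and 91 and 91 in normoxia, so that the first fell by 36.4 and the second fell by 18.8 percentile points of the chromosome. The interval upstream of the start, chr8:84981501-84984500, went the other way, from 122 to 131. A hypoxia-only interval of 0.5 kb, chr8:84988501-84989000, scored 51, touched a shared interval and lay 9783 bp upstream of Junb, nearer to the start of Hook2 at 1603 bp.

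Jund, the Jun protein that most cells make without a stimulus, scored 133 in both lists at its start interval, chr8:70696501-70701500. All 5 of its H3K27ac intervals were in both lists. Of these, 3 scored lower in normoxia, by 6, 7 and 23, and 2 were equal.

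Atf3 has a start at 191183340 and another at 191218039 on chromosome 1, both on the minus strand. H3K4me3 covered the first, at chr1:191182001-191184500, with a score of 1000 in both lists, and the nearest H3K27ac peak was 40161 bp away. The other start had neither mark. The H3K27ac interval of its window, chr1:191223501-191226000, lay 5462 bp upstream of that start, also carried H3K4me3 and scored 142 in hypoxia and 134 in normoxia.

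Maff, a small Maf protein that has no transactivation domain of its own, carried both marks at its 3 starts in a 2.5 kb interval, chr15:79346501-79349000. Its H3K27ac score was 99 in hypoxia and 136 in normoxia, a rise from the 41.3 to the 85.9 percentile of the chromosome, or of 33.6 points by rank over the whole list. The Fos upstream interval moved by 38.9 points within its chromosome and by 35.5 over the whole list, to a score at the ceiling, so the order of the pair differs between the scales. Directly downstream, in a Maff intron, chr15:79349001-79354000 was called in hypoxia only, 5 kb long with a score of 52. The run of touching H3K27ac peaks at the Maff start was therefore 7.5 kb in hypoxia and 2.5 kb in normoxia. At Maff the score at the start was higher in the list with the shorter run, whereas at Fosl1 the score was higher and the run longer in the same list.

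**Figure D3:**
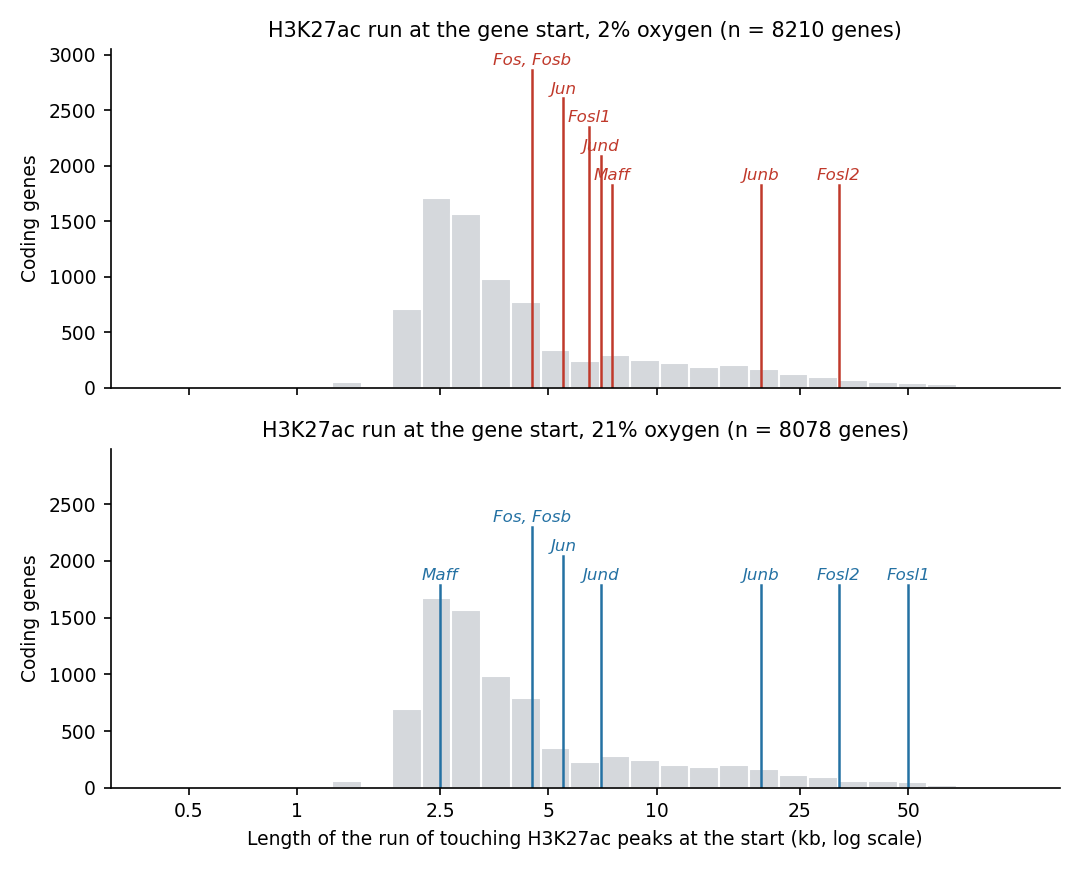
Number of coding genes by the length of the run of touching H3K27ac peaks at the gene start, in kb on a log scale, for 2% oxygen (top) and 21% oxygen (bottom), with vertical lines at the member genes. The median of all genes is 3.5 kb in both lists. Fos, Fosb, Jun, Jund, Junb and Fosl2 stand at the same place in both panels, while Fosl1 moves from 6.5 to 50 kb and Maff from 7.5 to 2.5 kb.

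To see what the condition-specific intervals hold, they were searched for the TRE on both strands in the genome sequence of the same build. Of the 53 H3K27ac intervals in the windows, 49 were shared, 3 were hypoxia-only and 1 was normoxia-only. This is 7.55% condition-specific (95% Wilson interval 2.97 to 17.9), beside 5.23% of 15421 H3K27ac intervals in all. The hypoxia-only share was 5.66% beside 3.82% in all, and the normoxia-only share 1.89% beside 1.41%. By gene, 4 of the 9 members had such an interval in the window, beside 9.28% of coding genes and 15.6% of those with both marks at the start in hypoxia. A hypoxia-only interval lay in 3 of the 9 windows (7.55% of coding genes) and a normoxia-only interval in 1 (1.85%). By nearest start, 2 of the 9 genes, Fosl1 and Fosl2, had a normoxia-only interval (0.984% of coding genes) and 2, Fosb and Maff, a hypoxia-only interval (2.54%). As these intervals led to the choice of Fosl1 and Fosl2, the counts are a description only. The intervals cover counting error alone, and neighbouring peaks are not independent. The member interval farthest from a gene inside a window lay 9783 bp from the Junb start, and the nearest outside were that of Fosl2 at 132801 bp, a normoxia-only interval of score 59 at 180390 bp from Fos and a hypoxia-only interval of score 116 at 191449 bp from Jund.

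All 4 intervals inside the windows touched a shared H3K27ac interval, scored 50 to 52 and lacked H3K4me3. Over the whole lists, 38.7% of hypoxia-only and 28.9% of normoxia-only H3K27ac intervals touched a shared interval, and 22.2% and 31.7% scored 50 to 52. Leaving out the lowest-scoring 25% of each list, or asking that the other list be empty for 1000 bp around a peak, removed all 4. The first of these brought in 1 other interval, the one that reaches from the end of Babam2 into the Fosl2 window, which scored 78 in hypoxia and 70 in normoxia.

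The TRE occurred 3 times in the Fosl1 interval, 2 times in the distant Fosl2 interval, 3 times in that of Fosb and 1 time in that of Maff, and 0 times in the 0.5 kb interval of Junb. These matches are printed with their flanks, 101 bases each on the plus strand of mm10, because they are the AP-1 site letters inside the stretches where the lists differ at AP-1 genes. Capitals mark TGAGTCA or its reverse complement TGACTCA. In the order printed they lie at chr19:5449819-5449919, chr19:5450439-5450539 and chr19:5451888-5451988 (Fosl1 introns), chr7:19316734-19316834, chr7:19316953-19317053 and chr7:19317373-19317473 (intergenic), chr15:79353629-79353729 (Maff intron), and chr5:32000511-32000611 and chr5:32002097-32002197 (Babam2 introns).
Fosl1 normoxia-only, site 1: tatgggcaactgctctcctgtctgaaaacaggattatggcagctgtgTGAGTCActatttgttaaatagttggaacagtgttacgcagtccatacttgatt
Fosl1 normoxia-only, site 2: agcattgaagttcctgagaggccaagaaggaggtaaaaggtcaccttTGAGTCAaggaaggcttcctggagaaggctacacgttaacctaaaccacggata
Fosl1 normoxia-only, site 3: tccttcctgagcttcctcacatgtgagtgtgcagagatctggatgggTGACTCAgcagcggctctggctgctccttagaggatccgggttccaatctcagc
Fosb hypoxia-only, site 1: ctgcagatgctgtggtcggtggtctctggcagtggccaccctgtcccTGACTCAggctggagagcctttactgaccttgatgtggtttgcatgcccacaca
Fosb hypoxia-only, site 2: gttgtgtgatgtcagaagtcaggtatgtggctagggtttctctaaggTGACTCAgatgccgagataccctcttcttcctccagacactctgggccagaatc
Fosb hypoxia-only, site 3: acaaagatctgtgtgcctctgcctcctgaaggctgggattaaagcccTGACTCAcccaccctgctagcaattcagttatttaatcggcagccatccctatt
Maff hypoxia-only, site 1: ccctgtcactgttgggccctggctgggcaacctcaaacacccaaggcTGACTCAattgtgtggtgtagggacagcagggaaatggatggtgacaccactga
Fosl2 nearest normoxia-only, site 1: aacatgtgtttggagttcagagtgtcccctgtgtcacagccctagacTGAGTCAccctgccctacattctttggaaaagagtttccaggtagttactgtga
Fosl2 nearest normoxia-only, site 2: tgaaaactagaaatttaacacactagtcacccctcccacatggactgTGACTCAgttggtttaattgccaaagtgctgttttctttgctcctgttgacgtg
Intervals of the same width held the TRE in 71.2% of cases at the width of the Fosl1 interval, 81.9% at that of Fosl2, 56.1% at that of Fosb, 64.5% at that of Maff and 7.63% at that of Junb.

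Over all 53 H3K27ac intervals of the windows, 34 held the TRE, or 64.2% (95% Wilson interval 50.7 to 75.7). Intervals of the same widths in the whole lists held it in 57.7% of cases on average, which lies inside that interval, and all H3K27ac intervals in 55.0%. When only the central 1000 bp of each interval was searched, 15 of the 53 held it, or 28.3% (95% Wilson interval 18.0 to 41.6), and the 17.7% of all H3K27ac intervals lay just outside. No test of either difference was made. By length the windows had 2.18 matches per 10 kb of H3K27ac and the whole lists 2.15. The matches were uneven between genes, with 17 in the Fosl1 window, 12 in that of Fosb and 10 in that of Fosl2, against 1 each in those of Fos and Atf3. The order per length was another: Atf3 was highest, from its 1 match in 2.5 kb, and then came Junb with 3.05 matches per 10 kb of H3K27ac, Fosb with 2.89, Jun with 2.73, Fosl1 with 2.64 and Fosl2 with 2.15. Jund had 1.47, Maff 0.779 and Fos 0.690. Of the 8 start intervals with H3K27ac, 4 held the TRE: that of Fosl1 held 2 matches and those of Fosl2, Junb and Jund 1 each. Those of Fos, Fosb, Jun and Maff held 0, at widths where 62.4%, 62.4%, 71.2% and 33.2% of all H3K27ac intervals held it. The upstream interval of Jun held 6, at a width where 98.0% held it. The full CRE occurred in 2 of the 53 intervals, at the starts of Jund and Maff, against 6.59% of all H3K27ac intervals.

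Among the 49 shared H3K27ac intervals, 21 scored lower in normoxia, 22 were equal and 6 scored higher. These are 42.9%, 44.9% and 12.2%, against 39.9%, 43.6% and 16.6% of 14614 shared intervals in all. Equal pairs were not all at the ceiling, as at the starts of Fosl2, Junb and Jund. In all, 6365 shared intervals had equal scores, while only 2802 peaks of the normoxia list stood at 1000. Whether an equal score below the ceiling was a separate value per oxygen level is unknown, so it does not show an unchanged mark. The normoxia list as a whole scored lower, with a median of 102 against 111, so positions were also compared. The median change in percentile of the list from hypoxia to normoxia was 1.67 points for the member intervals (interval from order statistics 0.80 to 2.04) and 1.67 for all shared intervals. An interval at the ceiling of 1000 in both lists moved from 88.9 to 90.6, or by 1.7 points, through its tied rank alone. Both medians stand at that value, so their equality is not a measured rank change. Within chromosomes, a scale chosen after seeing the data, it was 1.00 and 1.92. A rise of over 10 within-chromosome points was seen in 5 of the 49, against 7.87% of all shared intervals, and a fall of over 10 in 5 of the 49, against 16.3%. All 37 H3K4me3 intervals of the windows were shared with equal scores, as were all 14600 shared H3K4me3 intervals of the series. This score thus held no separate value per oxygen level, and its equality at the members does not measure whether H3K4me3 changed.

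**Figure D4:**
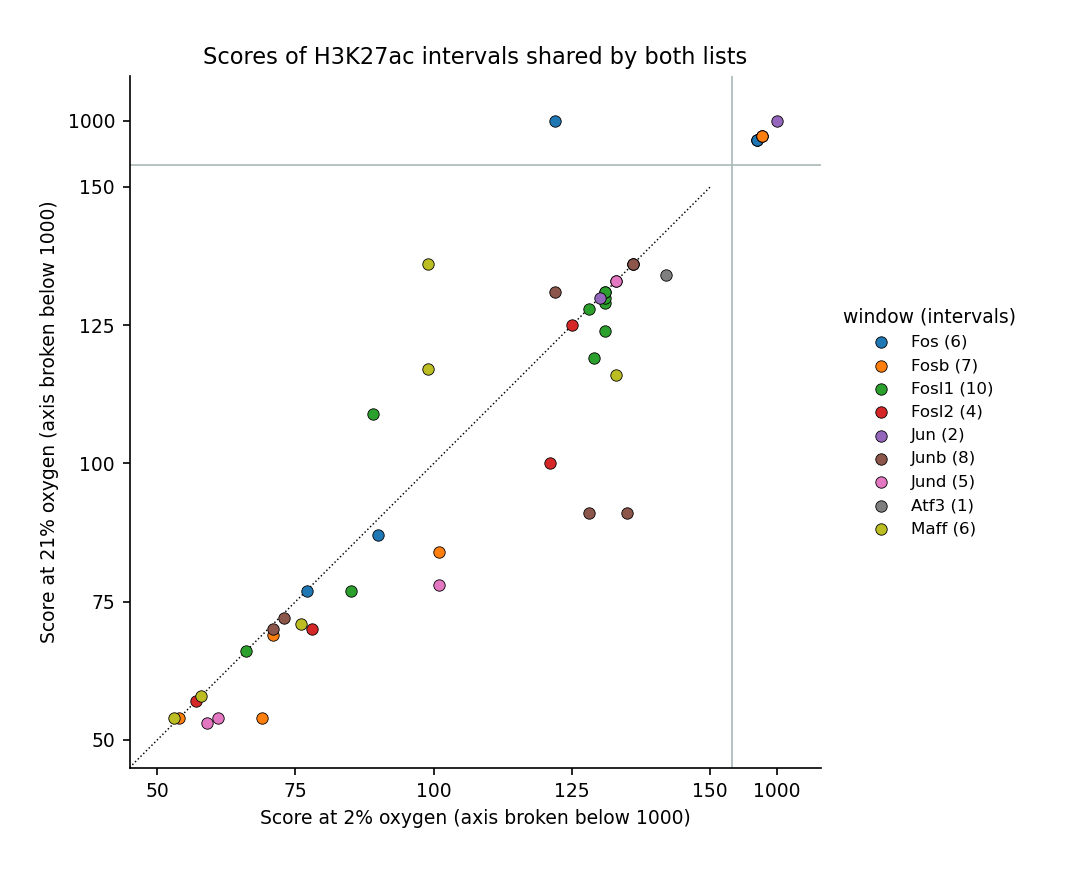
Score of each of the 49 shared H3K27ac intervals at 2% oxygen (horizontal) and 21% oxygen (vertical), coloured by the gene whose window holds it. Axes are broken below 1000, points at 1000 in both lists are shifted slightly by gene so that genes can be told apart, points with the same pair of scores lie on top of each other, and the dotted line marks equal scores. Of the points, 22 lie on equal scores, 21 on the side of lower scores in normoxia and 6 on the other side, among them the Maff start (99 and 136) and an interval upstream of Fos (122 and 1000).

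The other genes of the pathway were read in the same way, from lists chosen with earlier results of these data known. Over all coding genes, 58.9% had H3K4me3 at the start at each oxygen level, and 37.6% in hypoxia and 37.0% in normoxia had H3K27ac there. A condition-specific H3K27ac interval lay in the windows of 9.28% of coding genes, and of 15.6% of those with both marks at the start in hypoxia. The counts below are a description beside these shares, and no difference was tested. Of 23 other bZIP partners, 19 had H3K4me3 and 15 had H3K27ac at the start in both lists. Of the 8 without H3K27ac there, the first 5 in list order were Batf, Batf2, Batf3, Mafa and Nrl. In this list, Atf7 had a hypoxia-only interval in its window (14.5 kb, score 59). Atf6 (9.5 kb, score 50) and Bach1 (3 kb, score 109) had normoxia-only intervals in theirs. That of Atf6 lay nearest to the start of Olfml2b, and those of Atf7 and Bach1 nearest to the genes' own starts. Such genes were 3 of the 23. Of 22 kinases and factors upstream of AP-1, 21 had H3K4me3 and 18 had H3K27ac at the start. A hypoxia-only interval lay in the window of Mapk3, which encodes the kinase ERK1 (6.5 kb, score 78), nearest to the start of Aldoa. Another lay in that of the ERK-activating kinase gene Map2k2 (4.5 kb, score 80), nearest to the start of Pias4. Such genes were 2 of the 22.

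All 17 other immediate early genes had H3K4me3 at the start and 16 had H3K27ac, the exception being Arc, a gene of active neurons. Their median H3K27ac length was 23 kb in both lists. Nr4a1, a nuclear receptor gene, had a hypoxia-only interval in its window (5.5 kb, score 61), nearest to the start of 6030408B16Rik. Ccn2, a matrix protein gene also called CTGF, had a normoxia-only interval (2 kb, score 53), nearest to its own start. Such genes were 2 of the 17. Of 20 known AP-1 target genes of mesenchymal cells, 13 had H3K4me3 and 14 had H3K27ac at the start. Of the 6 without H3K27ac there, the first 5 in list order were the protease genes Mmp3, Mmp13, Mmp9 and Plau and the bone matrix gene Spp1. Mmp14, a membrane-bound collagenase gene, had a hypoxia-only interval in its window (2.5 kb, score 86), nearest to the start of Lrp10. The median H3K27ac length of the targets was 22.3 kb in hypoxia and 21.8 kb in normoxia.

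The labelled cell type was checked by its markers. H3K27ac lay at the start of 9 of 12 mesenchymal stromal markers and of 0 of 6 haematopoietic, 0 of 4 endothelial and 0 of 2 erythroid markers in both lists, and H3K4me3 lay at 11, 1, 1 and 1 of them. The stromal markers without H3K27ac at the start were Eng, Nt5e and Twist2. The lists held 15203 H3K27ac peaks in hypoxia and 14832 in normoxia, and 14606 and 14603 H3K4me3 peaks.

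Coding genes most like a member were found by the sum of absolute differences in kb over 4 lengths in the window: hypoxia-only, normoxia-only and shared H3K27ac, and H3K4me3 in hypoxia. For Fosl1 these were Ccdc85b (0 kb), Efemp2 (3 kb) and Fibp (3.5 kb), which are its neighbours and share the same intervals. For Fosl2 they were Kif1b (1.2 kb), Map4k1 (1.25 kb) and Eml1 (1.3 kb), on other chromosomes. For Fosb they were Gm45713 (2.17 kb), Rpl13a (2.54 kb) and Tlx2 (2.63 kb), and for Maff Tmbim1 (2.5 kb), Dok1 (3.5 kb) and Entr1 (4 kb). Each of the last 6 had a hypoxia-only stretch in its window, of 3.5 kb for the first 5 and of 2 kb for Entr1. That length was among the 4 used for matching, so this follows from the selection and is not a separate observation.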

How the data were processed

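ChIP-seq libraries of H3K27ac, H3K4me3 and input from MSCs at 2% and 21% oxygen were grouped by their titles. By the study's methods and the submitters' processing notes, the authors aligned reads with Bowtie2 (mm10), took out duplicates using Picard and ran the peak caller chromstaR, a hidden Markov model, in its differential mode across oxygen levels. Versions are not given in the sources used here. The 4 deposited peak lists, each made from both libraries of a group, give positions and a score whose definition is not stated. Overlaps between lists were always identical intervals, and all boundaries were multiples of 500 bp. The columns of no sample used here number 0.

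Peaks with no base in the other list of their mark were named hypoxia-only or normoxia-only (together condition-specific). Genes and starts came from GENCODE M21 basic, promoter sequences from RefSeq (GRCm38.p6, the build of mm10). Python 3.11.15, pandas 2.3.3, NumPy 2.4.6, SciPy 1.17.1, pysam 0.24.0 and samtools 1.23.1 were used, and the overlap code was tested on simulated data. With 1 list per group no test between conditions was made. The named genes were all 9 members, list genes with a condition-specific interval, examples without H3K27ac at the start (1 list gene is not reported here), and the 3 genes most like each member with a condition-specific interval nearest to it. Members and lists were chosen with earlier results of these data known.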

Additional observations from a re-analysis of the deposited data

How the results depend on the processing

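No paired analysis was possible because each list was made from both libraries and carries no replicate number; for the same reason no replicate could be left out. Of 49 alternative values, 36 stayed within 1.5 times the count or inside the interval. Those that asked for at least 50% of a peak to be covered could not change, because overlaps between lists were always identical intervals. The 4 condition-specific intervals in the windows (3 hypoxia-only, 1 normoxia-only) became 0 (0 and 0) when the other list had to be empty for 1000 bp around a peak, or when peaks within 1000 bp were joined. Without the lowest-scoring 25% of both lists they became 1 (1 and 0), a different interval: the peak from the end of Babam2 into the Fosl2 window, which scored 78 in hypoxia and 70 in normoxia. Placed by the nearest start, the normoxia-only count became 2. With windows of 20000 bp the median H3K27ac length was 11.5 kb in hypoxia and 11.4 kb in normoxia. In the central 1000 bp of the intervals the share with the TRE was 28.3% (18.0 to 41.6), against 17.7% of all H3K27ac intervals. Without the lowest-scoring 25% of peaks, H3K4me3 lay at the start of 8 genes, as the Fosl2 peak, with a score of 123, was left out. Chosen after seeing the data were leaving out Fosl1 or Atf3 (median 28.9 to 34.0 kb), ranks within chromosomes (1.00) and intervals nearest to a member (57.7% with the TRE). Sequencing depth and replicate spread are unknown, so no difference between oxygen levels could be set against them. Lists that overlap only as identical intervals share their boundaries, so interval lengths are not separate measurements per list.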

Other observations

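Sequence content of the H3K27ac intervals differed with H3K4me3. In the whole lists the TRE occurred 1.44 times per 10 kb in H3K27ac intervals with H3K4me3 and 2.41 times per 10 kb in those without it. In the windows of the AP-1 genes the values were 2.22 (24 matches in 108 kb, 27 intervals) and 2.16 (40 matches in 185.5 kb, 26 intervals). The intervals with H3K4me3 that held the most matches were at Ercc1 in the Fosb window (4), upstream of Junb (4) and at Vasp in the Fosb window (3), all of them nearer to the start of another coding gene than to that of the member. Condition-specific H3K27ac intervals of the whole lists held 1.95 matches per 10 kb when hypoxia-only and 2.77 when normoxia-only. These densities were compared after seeing the data, and no test was made.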
